A study of Rattus norvegicus with 28 samples.

Results

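The question addressed here is whether a mutant histone changed gene expression differently in 2 brain regions of the rat. For each gene, the effect of H3.3Q5A was the difference between libraries with H3.3Q5A and libraries with H3.3WT, and the interaction was this effect in the nucleus accumbens (NAc) minus the same effect in the medial prefrontal cortex (mPFC), on the log2 scale. A positive interaction means that the gene was shifted upward by H3.3Q5A in NAc relative to mPFC, and a negative one the reverse. All 28 libraries of the series entered this contrast, so none was left aside.

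The libraries hold polyadenylated RNA from male Sprague-Dawley rats described as young adults of 200 to 250 g. All 4 groups had cocaine in common: every animal went through 10 days of extended-access self-administration. Lentivirus made from the pCDH vector was then injected on both sides into NAc or into mPFC, carrying H3.3WT or H3.3Q5A, and cue-induced cocaine seeking was tested after an abstinence, with the virus expressed, of 30 days. The 4 groups, NAc H3.3WT, NAc H3.3Q5A, mPFC H3.3WT and mPFC H3.3Q5A, held 7 libraries each. No group without cocaine or without virus was part of the contrast, and the sources used here do not give the promoter of the transgene. The virus was added on top of the H3.3 that the animals make themselves, and the tissue was sequenced in bulk, so transduced and other cells are mixed. Library titles also carry the mark P1 or P2, and what it stands for is not stated. There were 13 P1 and 15 P2 libraries, with 3 or 4 of each mark in every group. Replicate numbers are those of the titles.

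H3.3 is a histone H3 variant that neurons place into chromatin outside DNA replication, and it makes up much of the H3 in mature neurons. The glutamine at position 5 of H3 can be joined to dopamine by the enzyme transglutaminase 2, a modification called dopaminylation, which has been tied to transcription in dopamine target regions. The Q5A substitution puts an alanine in its place, which cannot take up dopamine. NAc is a ventral striatal region with dense dopamine input and a known part in drug seeking, and mPFC is a cortical region with sparser dopamine input that projects to NAc. The title of the study names an effect of the modification in NAc and not in mPFC, and the interaction is the direct comparison of the regions in the transcriptome.

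The total count ranged from 15.4 to 51.7 M (megacounts) per library. The mean total of H3.3Q5A libraries minus that of H3.3WT libraries came to −0.132 M for NAc and to 7.47 M for mPFC, and its part in the interaction was not tested. The deposited table identifies genes by Ensembl ID, and 0 of these IDs could be paired with a symbol, so gene families, the H3.3 genes and the markers of the labelled regions could not be examined. Genes are therefore described in groups formed by their level and by their difference between the regions, together with the 2 IDs of smallest p in each direction.

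No gene passed the test for a difference in the H3.3Q5A effect between the regions. The adjusted p was under 0.05 for 0 of 15635 genes (edgeR quasi-likelihood test, Benjamini-Hochberg adjustment), a share of 0%, and the smallest adjusted p was 0.91. At an unadjusted p under 0.05 there were 811 genes, or 5.19%, and 0.05 of all genes tested is 782. These divided into 407 genes (2.6%) with a positive and 404 (2.58%) with a negative interaction. With upper-quartile in place of TMM scaling the division was 306 positive and 536 negative. DESeq2 also called 0 genes, with 932 at an unadjusted p under 0.05. The same 0 was found with limma voom, with 773 at an unadjusted p under 0.05, while limma voom with sample quality weights called 7 genes, 3 positive and 4 negative, with 2054 at an unadjusted p under 0.05.

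Interactions were small for most genes. The middle of the 15635 genes lay at −0.0036, the quartiles were −0.12 and 0.11, and 5% lay below −0.46 and 5% above 0.37. Positive values were found for 7685 genes and negative values for 7950. The median standard error (SE) of an interaction was 0.17, and the median half-width of its 95% confidence interval was 0.34. In 60.4% of genes the whole interval stayed below a 1.5-fold difference in either direction, and in 84.7%, or 13239 genes, below a 2-fold one. For the remaining genes the interval reached a 2-fold difference or more in at least 1 direction. The libraries of NAc varied more than those of mPFC around their group means, with a median residual SD of 0.23 against 0.19 log2 CPM (counts scaled to library size), and the SD was larger in NAc for 61.2% of genes.

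**Figure D1:**
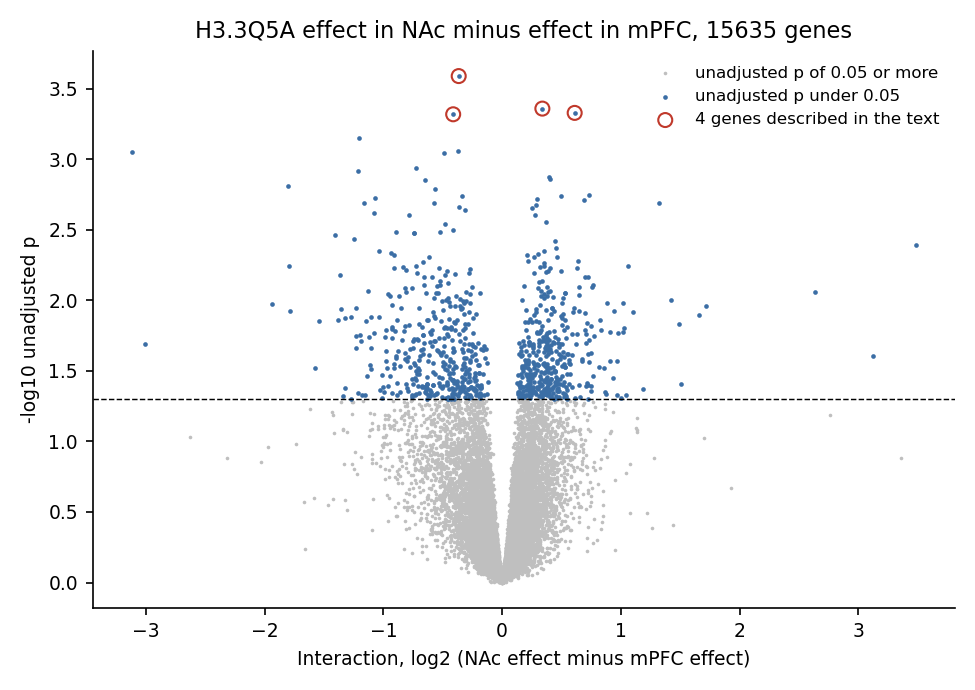
Interaction of each gene (horizontal axis, log2) against its unadjusted p (vertical axis, −log10), with a point for each gene and the dashed line at the 0.05 limit. The 811 genes above the line divide into 407 to the right and 404 to the left, and the 4 genes ringed are those described by ID.

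Among the 811 genes at an unadjusted p under 0.05, the H3.3Q5A effect had opposite signs in the 2 regions for 725, or 89.4%, against 42.6% of all genes. A gene is chosen for a large interaction when its effects differ, so this share follows from the choice and carries no support. The effect was larger in size in NAc for 497 of the 811 (61.3%), against 52.6% of all genes. The same choice favours the region with the larger spread between libraries, which was NAc for 61.2% of genes. This share therefore carries no support either. The median interaction of the 811 genes was 0.42 in size, made up of a median effect of 0.24 in NAc and 0.16 in mPFC.

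The 20 genes of smallest p at 1 CPM or more had interactions of 0.29 to 3.12 in size, 9 positive and 11 negative, and each kept an unadjusted p of at most 0.00569 on leaving out any 1 library (edgeR). The 4 of smallest p among them lay at moderate to high levels, and each had effects of opposite sign in NAc and mPFC. They were chosen by p in these same libraries, so their values are a description. ENSRNOG00000021410 had the larger of the 2 positive interactions. Its level, in CPM, ran from 56.6 through a median of 106.3 to 117.1 in NAc H3.3WT and from 104.9 through 110.004 to 123.3 in NAc H3.3Q5A. In mPFC it ran from 90.8 through 124.1 to 135.5 with H3.3WT and from 68.0 through 81.2 to 102.3 with H3.3Q5A. The groups overlapped in both regions. In NAc H3.3WT replicate 17 lay far below the rest, while in mPFC most H3.3Q5A libraries lay below the H3.3WT libraries. The interaction of ENSRNOG00000021410 was 0.61 (SE 0.15), with an edgeR adjusted p of 0.91. With the P1 libraries alone it was 0.38, with the P2 libraries alone 0.80, and it ran from 0.52 to 0.67 on leaving out each library.

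ENSRNOG00000014371 was the more abundant of the positive pair. In NAc its level ran from 168.5 through a median of 189.8 to 211.2 CPM with H3.3WT and from 185.6 through 196.2 to 240.02 CPM with H3.3Q5A. In mPFC the corresponding values were 198.3, 230.2 and 240.3 CPM with H3.3WT and 164.9, 190.95 and 209.4 CPM with H3.3Q5A. The H3.3WT median was the lower one in NAc, by little, and the higher one in mPFC, and the libraries overlapped in both regions. Its interaction was 0.34 (SE 0.08, edgeR adjusted p = 0.91), with 0.28 among P1 and 0.37 among P2 libraries.

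ENSRNOG00000018755 had the smallest p of all, and a negative interaction. Its level ran from 43.7 through 54.7 to 59.5 CPM in NAc H3.3WT and from 41.3 through 45.4 to 49.5 CPM in NAc H3.3Q5A. It ran from 72.1 through 79.5 to 81.4 CPM in mPFC H3.3WT and from 75.8 through 84.4 to 97.2 CPM in mPFC H3.3Q5A. H3.3Q5A libraries thus lay lower in NAc and higher in mPFC, and the groups overlapped in both. The interaction was −0.37 (SE 0.09, edgeR adjusted p = 0.91), with −0.45 among P1 and −0.31 among P2 libraries.

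ENSRNOG00000006789 had the other negative interaction, and its virus groups did not overlap in NAc. It was chosen by p in these libraries, which favours such a separation. The share of all genes with a separation is not given here, so it carries no support. In NAc it ran from 22.8 through 24.3 to 30.2 CPM with H3.3WT and from 17.7 through 19.1 to 20.4 CPM with H3.3Q5A. In mPFC the groups overlapped, with values from 21.2 through 23.002 to 26.5 CPM with H3.3WT and from 20.3 through 24.01 to 28.8 CPM with H3.3Q5A. Its interaction was −0.41 (SE 0.10, edgeR adjusted p = 0.91), and it was −0.42 among P1 and −0.42 among P2 libraries. For all 4 genes the choice by p over both sets favours like signs among P1 and P2 libraries. Of the 811 genes at an unadjusted p under 0.05, 790 (97.4%) had the same sign in both sets, against 40.7% of all genes. The unadjusted p of each of the 4 genes stayed at or under 0.00134 on leaving out any 1 library, and the adjusted p ranged from 0.255 to 0.99997. With sample quality weights, limma voom gave an adjusted p of 0.0174 to ENSRNOG00000021410 and to ENSRNOG00000018755, and 0.0545 to ENSRNOG00000014371 and ENSRNOG00000006789, while DESeq2 gave 0.33 to 0.437.

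**Figure D2:**
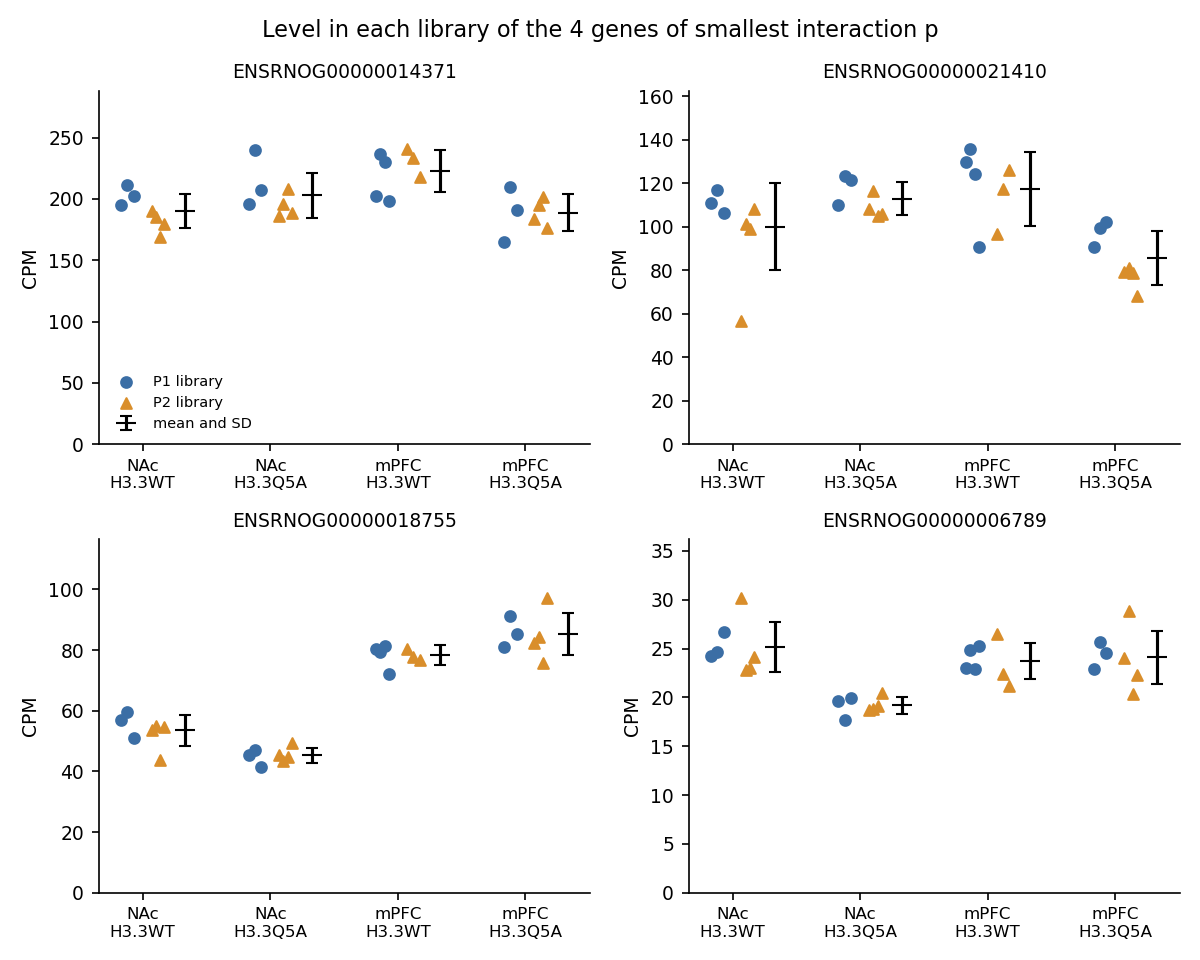
Level in CPM (vertical axis, from 0) of the 4 genes in every library, by group, with circles for P1 and triangles for P2 libraries and a bar for the group mean and SD (n = 7). The H3.3Q5A libraries of NAc lie at 17.7 to 20.4 CPM for ENSRNOG00000006789, below all H3.3WT libraries of NAc, whereas the mPFC groups overlap. The genes were chosen by p in these same libraries, so the separation is a description.

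Genes higher in mPFC had negative median interactions. Among P2 libraries, however, only those of them higher by 2 or more lay below the median of all genes. For genes higher in NAc the sign of the median differed between the P marks. Genes were grouped by the log2 difference of their NAc and mPFC levels, taken over both viruses in the same 28 libraries, so the groups are not independent of the libraries that give the interaction. The 273 genes higher in mPFC by 2 or more, here called mPFC-high, had a median interaction of −0.43, with 52 of them above 0. Of these genes 31 (11.4%) had an unadjusted p under 0.05 and a negative interaction and 0 a positive one, against 2.58% and 2.6% of all genes, and 0 passed the adjusted threshold. Of the 258 genes higher in NAc by 2 or more, here called NAc-high, 6 (2.33%) had an unadjusted p under 0.05 and a positive interaction, a share near that of all genes, and 0 a negative one. The medians were −0.17 for the 861 genes higher in mPFC by 1 to 2, −0.033 for the 3378 higher by 0.25 to 1, and 0.0087 for the 6871 genes within 0.25 of each other. The genes higher in NAc had medians of 0.019 (3375 genes, by 0.25 to 1), 0.096 (619 genes, by 1 to 2) and 0.084 (the NAc-high genes). From P2 libraries alone the median of all genes was −0.038. The genes higher in mPFC by 1 to 2 and by 0.25 to 1 were at −0.034 and −0.018 there, no lower than all genes. From P1 libraries alone they were at −0.38 and −0.093, with all genes at 0.0015. In bulk tissue, fewer cells of a type and less RNA per cell cannot be told apart for any of these groups.

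The P1 and P2 libraries differed in the medians of the same gene groups. With P1 libraries, the median interaction was −0.85 for mPFC-high genes, with 27 of 273 above 0, and 0.68 for NAc-high genes, with 234 of 258 above 0. With P2 libraries, the mPFC-high genes were at −0.16 with 110 above 0, and the NAc-high genes at −0.48 with 61 above 0. The median of the NAc-high genes thus had opposite signs in the P1 and P2 sets, and the value over all 28 libraries lay between them. It also changed sign, to −0.061, without NAc H3.3Q5A replicate 3. It was 0.31 without mPFC H3.3Q5A replicate 34 and 0.24 without that library and mPFC H3.3WT replicate 11, which had the most NAc-high transcripts of the mPFC libraries. For the mPFC-high genes the median stayed negative on leaving out each library, with −0.62 as the lowest value, reached when NAc H3.3Q5A replicate 19 was left out, and −0.30 as the highest, when NAc H3.3WT replicate 12 was.

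**Figure D3:**
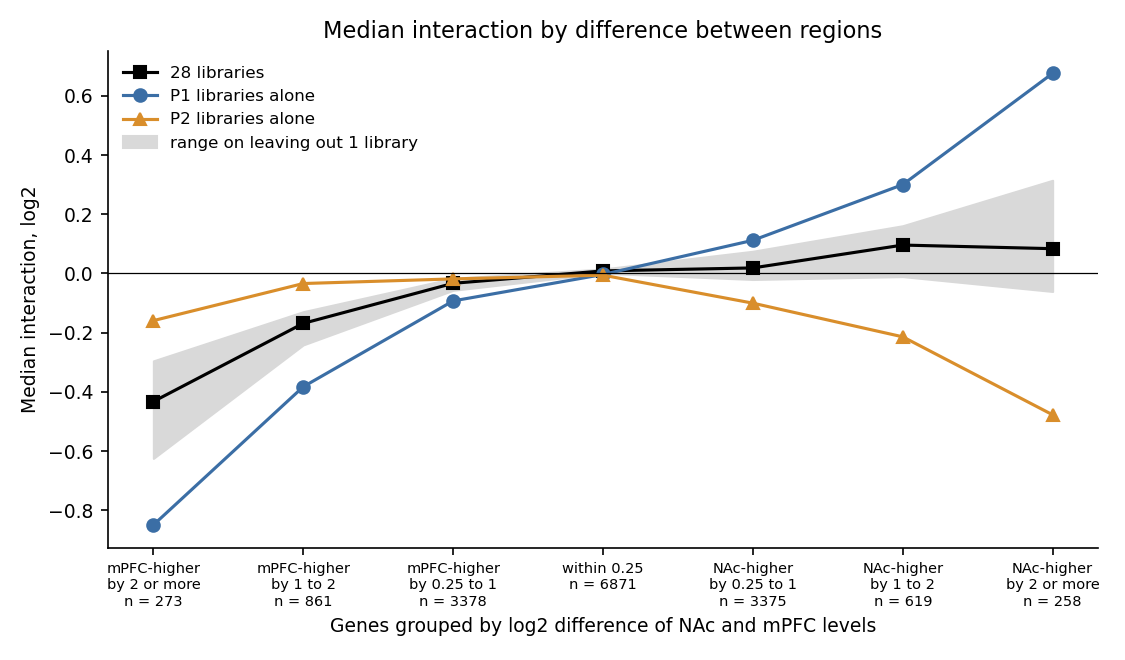
Median interaction (vertical axis, log2) of 7 gene groups ordered by the log2 difference between NAc and mPFC levels (horizontal axis, with the number of genes), over 28 libraries (squares), P1 libraries (circles) and P2 libraries (triangles), with the range on leaving out each library in grey. The P1 and P2 lines lie close together for the 6871 genes at like levels and part toward both ends. They lie at 0.68 and −0.48 for the NAc-high genes and at −0.85 and −0.16 for the mPFC-high genes.

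The level of the mPFC-high genes varied more between libraries of a group in NAc, where these genes are low by definition, than in mPFC. The mPFC-high genes averaged 1.10, 1.53 and 0.64 log2 CPM in the P1 libraries of NAc H3.3WT. They averaged 0.57, 0.23 and 0.16 in those of NAc H3.3Q5A, so the P1 libraries with H3.3WT were all higher. With only 3 libraries on each side and no share of all genes given, this separation carries no support. In the P2 libraries of NAc the mPFC-high genes averaged 0.27, 0.80, 0.023 and 1.08 with H3.3WT. With H3.3Q5A they averaged 0.17, 1.13, 0.15 and 0.27 there, and the groups overlapped. In mPFC they ran from 3.04 through a median of 3.18 to 3.59 with H3.3WT and from 2.82 through 3.24 to 3.41 with H3.3Q5A. NAc libraries of the same group thus lay far apart in genes that are high in the other region, from 0.023 to 1.53 with H3.3WT and from 0.15 to 1.13 with H3.3Q5A, and the part of this spread in the interaction was not tested.

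The NAc-high genes averaged 3.69, 3.64 and 3.75 log2 CPM in the P1 libraries of NAc H3.3WT and 3.95, 4.59 and 4.12 in those of NAc H3.3Q5A. In the P2 libraries of NAc they averaged 4.06, 3.84, 4.07 and 3.76 with H3.3WT and 3.95, 3.78, 3.92 and 4.05 with H3.3Q5A. The groups were separate among P1 and overlapped among P2 libraries. Each side held only 3 P1 libraries, and the share of all genes so separated is not given here. The separation therefore carries no support. In mPFC the NAc-high genes ran from 0.78 through 0.85 to 1.28 with H3.3WT and from 0.76 through 0.82 to 1.85 with H3.3Q5A, and the highest value, replicate 34, is a P2 library. Each library's region score, its NAc-high minus its mPFC-high level, was also entered as a term within each region. edgeR then called 0 genes, with 968 at an unadjusted p under 0.05, of which 467 were among the 811. In NAc the mPFC-high genes averaged 0.78 with H3.3WT and 0.38 with H3.3Q5A, so the score differed between the virus groups. The term can thus take up part of the interaction, and 0 genes were called without it too, so this fit decides nothing.

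Across all genes, interactions from P1 and from P2 libraries had opposite signs more often than the same sign. No library is shared between the 2 sets. Spearman's correlation between them was −0.22 over 15632 genes, Pearson's was −0.17, and the signs were the same for 40.7% of genes. All genes of a set come from the same 13 or 15 libraries, so these values describe those libraries and genes are not independent replicates. Among P1 libraries 1159 genes (7.41%) had an unadjusted p under 0.05, and 436 of them (37.6%) had the same sign among P2 libraries. Among P2 libraries 1238 genes (7.92%) had an unadjusted p under 0.05, and 481 of them (38.9%) had the same sign among P1 libraries. In both sets 62 genes had an unadjusted p under 0.05, 11 positive in each, 12 negative in each and 39 with opposite signs. edgeR called 0 genes in either set.

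The correlation was negative on leaving out each of the 28 libraries, but 3 of them moved it by more than 1.5 times. It was −0.095 without mPFC H3.3WT replicate 13, −0.099 without NAc H3.3WT replicate 17 and −0.11 without NAc H3.3Q5A replicate 3, and −0.29 at the lowest, without NAc H3.3WT replicate 23. NAc H3.3WT replicate 17 held 61.1% of the main axis of variation between replicate NAc libraries, an axis with 33.2% of their residual variance. In mPFC replicate 13 of H3.3WT held 44.6% of the corresponding axis, which had 30.5% of the residual variance. By level, the Spearman correlation was −0.094 for genes under 1 CPM, −0.13 at 1 to 10 CPM, −0.30 at 10 to 100 CPM and −0.36 at 100 CPM or more. For the 6871 genes within 0.25 of each other between the regions it was −0.29. It was only −0.032 for genes higher in mPFC by 2 or more, with like signs for 55.7% of them. For those higher in mPFC by 1 to 2 and by 0.25 to 1 it was −0.040 and −0.20. For genes higher in NAc by 0.25 to 1, by 1 to 2 and by 2 or more it was −0.15, −0.049 and −0.34.

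**Figure D4:**
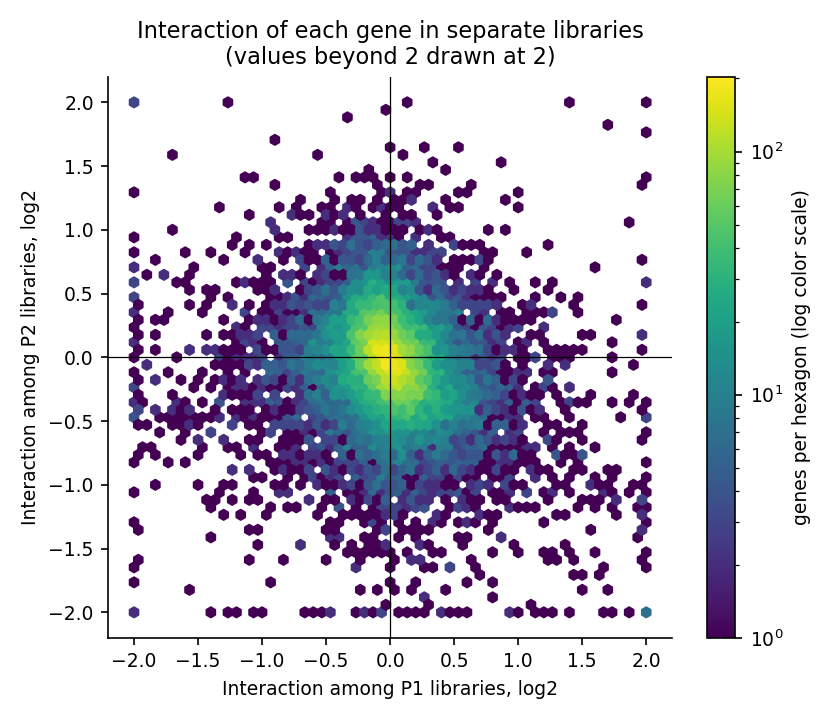
Interaction of each gene among P1 libraries (horizontal axis, log2) against that among P2 libraries (vertical axis, log2), for 15632 genes, with the number of genes in a hexagon as colour on a log scale and values beyond 2 drawn at 2. The cloud leans from upper left to lower right, with a Spearman correlation of −0.22.

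The difference of the interaction between P2 and P1 libraries was then tested gene by gene, in a fit with a mean for every combination of group and P mark, chosen after the values above were seen. edgeR called 0 of 15635 genes, with a smallest adjusted p of 0.455, and 1707 genes (10.9%) were at an unadjusted p under 0.05. Of these, 821 (5.25%) had a higher and 886 (5.67%) a lower interaction among P2 libraries. Among the 258 NAc-high genes, 66 (25.6%) were lower and 1 was higher at this threshold, with a median difference of −1.08. The 273 mPFC-high genes had 38 (13.9%) higher and 3 lower, with a median difference of 0.75. No gene of either group passed the adjusted threshold, so the difference between the P sets was not shown for any single gene.

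The sign of the interaction also varied with the level of the gene, by small amounts. The 2477 genes at 100 CPM or more had a median interaction of 0.037, with 1523 (61.5%) above 0. At an unadjusted p under 0.05, 100 of them (4.04%) were positive and 25 (1.01%) negative, against 2.6% and 2.58% of all genes. The 7930 genes at 10 to 100 CPM had a median of −0.0024, the 3939 at 1 to 10 CPM a median of −0.04, and the 1289 under 1 CPM a median of −0.079, with 41.5% above 0. With upper-quartile scaling the counts at 100 CPM or more were 79 positive and 47 negative, a less uneven split. Over all genes that scaling gave 306 positive and 536 negative. The median of all genes was then −0.026, against −0.0036 with TMM scaling. Positive values thus stayed the more frequent ones at 100 CPM or more, unlike among all genes. Under that scaling the 4 medians, from the highest level down, were 0.014, −0.025, −0.062 and −0.10, so the order was the same and no sign changed. From P1 libraries they were 0.0069, 0.0018, −0.0055 and 0.00997, which have no such order, and from P2 libraries 0.046, −0.032, −0.11 and −0.16. The median at 100 CPM or more was 0.017 without NAc H3.3Q5A replicate 3, and that under 1 CPM was −0.13 without mPFC H3.3WT replicate 13. The precision followed the level too, with a median SE of 0.13 at 100 CPM or more and 0.42 under 1 CPM. Intervals short of a 2-fold difference were found for 96.1% of genes at 100 CPM or more and for 30.7% under 1 CPM.

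The largest interactions were found in genes of low level and rested in part on single libraries. An interaction of 1 or more in size was fitted for 125 genes (0.799%), 31 positive and 94 negative. Their median level was 1.72 CPM, where the median of all genes was 23.7 CPM, and 44 of them (35.2%) lay under 1 CPM, against 8.24% of all genes. The 273 mPFC-high and 258 NAc-high genes held 26 and 12 of the 125. The median SE of these 2 groups was 0.45 and 0.43, against 0.17 for all genes. Of the 125, 61 had an unadjusted p under 0.05 and 0 an adjusted p under 0.05. Leaving out 1 library moved the interaction by more than 1.5 times for 52 of the 125, and it stayed at 1 or more in size in all 28 such fits for 39. The library whose removal moved these 52 genes most was mPFC H3.3Q5A replicate 34 for 10 genes and NAc H3.3WT replicate 12 for 7.

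Single libraries also set how many genes reached an unadjusted p under 0.05. The count was 1255 without NAc H3.3WT replicate 21 and 586 without mPFC H3.3WT replicate 36, against 811 with all libraries. Of the 811 genes, 330 (40.7%) stayed under this threshold in all 28 fits that left out 1 library. All 811 kept their sign in these fits, which their choice by p makes likely, so the kept sign carries no support. edgeR called 0 genes in each of the 28 fits.

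**Figure D5:**
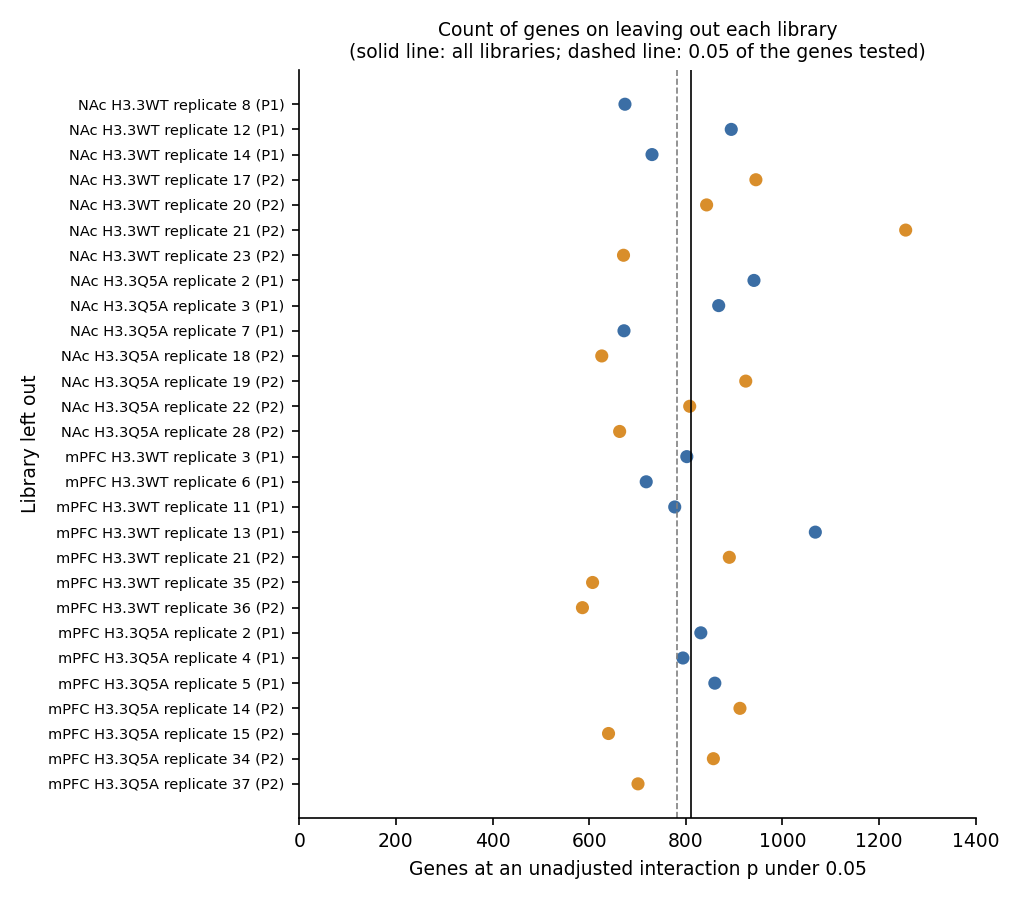
Number of genes at an unadjusted interaction p under 0.05 (horizontal axis) on leaving out each library (vertical axis), with P1 libraries in blue and P2 libraries in orange. The solid line is the count with all libraries, 811, and the dashed line is 0.05 of the genes tested, 782. The highest count, 1255, follows from leaving out NAc H3.3WT replicate 21.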

How the data were processed

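The authors deposited read counts for Ensembl genes, not normalized, with a column for each library. The build rn6 and the tools HISAT2 (version 2.1.0), DESeq2 (version 1.6.3) and featureCounts (version 2.0.1) are listed per the submitters' processing notes. Their roles and the annotation release are not given in the sources used here. Every gene in the table reaches 10 counts in at least 14 libraries, so low genes had been removed. Per the labels' protocols, the TruSeq RNA V2 kit was used, which does not record strand, so overlapping genes on opposite strands cannot be told apart.

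Groups, replicate numbers and P marks come from the titles. No label ties libraries to separate animals, so the p-values cover only variation among these libraries, which may be technical. Libraries of a group differed by more than sampling noise (lowest chi-square per degree of freedom 7.49 over 84 pairs).

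The interaction was tested with edgeR 4.0.16 in R 4.3.3 (TMM factors, filterByExpr, robust quasi-likelihood F test) with 4 group means and a P1/P2 term within each region, and Benjamini-Hochberg adjustment over 15635 genes. Its SE comes from the same fit. Levels are CPM with TMM factors, and log2 CPM used a prior count of 2. DESeq2 1.42.0 and limma 3.58.1 were alternatives. The scripts were tested on simulated data. Gene lists, marker lists and the H3.3 genes, written as symbols, are not analysed here because 0 IDs matched the reference table (assembly GRCr8). The rule for named genes took the 10 smallest unadjusted p in each direction at a mean of 1 CPM or more, limited to 2 IDs each way without symbols. The contrast, the lists and the region groups were chosen with earlier results of these data known.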

Additional observations from a re-analysis of the deposited data

Results flagged for a closer look

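Of 28 sets of 7 values checked for a library far from the others of its group, 7 held one, where chance gives about 1 in 20. ENSRNOG00000021410 was at 56.6 CPM in NAc H3.3WT replicate 17, with the next library at 99.1 CPM. ENSRNOG00000014371 was at 240.02 CPM in NAc H3.3Q5A replicate 3, with the next at 207.8 CPM. The same replicate had the NAc-high genes at 4.59 log2 CPM, with the next at 4.12. In NAc H3.3Q5A replicate 19 the mPFC-high genes were at 1.13 log2 CPM, with the next at 0.57. The NAc-high genes were at 1.28 log2 CPM in mPFC H3.3WT replicate 11, with the next at 0.97, and at 1.85 log2 CPM in mPFC H3.3Q5A replicate 34, with the next at 0.97. The total count was 51.7 M (megacounts) in NAc H3.3Q5A replicate 22, with the next at 26.4 M.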

How the results depend on the processing

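The count of called interaction genes was 0 under each setting run with edgeR, DESeq2 and limma voom, P1 and P2 libraries alone included, and 7 with limma voom and sample quality weights. It ranged from 0 to 0 on leaving out each library. At an unadjusted p under 0.05 there were 2054 genes with sample quality weights, 1238 among P2 libraries alone, 758 without mPFC H3.3Q5A replicate 34 and mPFC H3.3WT replicate 11, 846 with P1 and P2 libraries weighted equally, and from 586 to 1255 on leaving out each library. The median SE ranged from 0.15 to 0.17 on leaving out each library. For the mPFC-high genes the median interaction was −0.85 with P1 libraries alone and ranged from −0.62 to −0.30 on leaving out each library. That of the NAc-high genes was 0.68 among P1 and −0.48 among P2 libraries alone, and from −0.061 to 0.31 on leaving out each library. The Spearman correlation between P1 and P2 interactions ranged from −0.29 to −0.095 on leaving out each library. The 4 genes described by ID kept their sign under all settings run. Their choice by p in these same libraries makes this likely, so the kept sign carries no support. The cause of these shifts was not tested. The fits with the region score and with equal P weights, and all settings of the gene groups and of the correlation, were chosen after seeing the data. No paired analysis was possible because H3.3WT and H3.3Q5A libraries of a region share no replicate number, and no other pair of groups shares more than 1. Depth and the spread between libraries limit genes of low level most, since under 1 CPM intervals short of a 2-fold difference were found for 30.7% of genes.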
